A study of Homo sapiens with 30 samples.

Results

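Transcript levels of 7 annexin genes (ANXA1, ANXA2, ANXA4, ANXA5, ANXA6, ANXA7 and ANXA11) were followed in OPM2 and Delta47, both established lines of human multiple myeloma, after Cas9 disruption of FOXM1, which encodes a transcription factor of the cell cycle. The 7 genes were picked by symbol, with the fall of ANXA1 in both Delta47 knockout clones already known. They are 7 of 16407 genes in the OPM2 table and 7 of 17286 genes in the Delta47 table. In OPM2 the groups were KO1R (the KO1 clone with a lentiviral FOXM1c vector), KO1EV (the KO1 clone with an empty vector), KO2 (a second knockout clone), KO1 (a knockout clone) and WT (unedited cells). In Delta47 they were KO2R (the KO2 clone with the FOXM1c vector), KO2, KO1 and WT, and the Delta47 empty-vector group was not analysed here. The guides targeted exon 2 of FOXM1, and vector cells were sorted for GFP. Every group had 3 libraries of poly-A RNA. Each knockout group is 1 clone, so a difference from WT may belong to that clone. Values are FPKM (fragment counts scaled by transcript length and library size) in OPM2 and, in Delta47, the authors' expression value, for which the table names no unit. The tables were normalised separately, so no test was made between the lines. The sequencing depth is unknown, because no counts were used.

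Annexins are calcium-dependent proteins that bind acidic phospholipids on the inner face of membranes and act in vesicle traffic, membrane repair and signalling. Several form complexes with small S100 proteins, the best known being annexin A2 with S100A10, which binds plasminogen at the cell surface. Annexin A5 binds exposed phosphatidylserine and is the common stain for dying cells, annexin A1 is a glucocorticoid-regulated ligand of formyl peptide receptors, and annexin A2 has been linked to the adhesion of myeloma cells in bone marrow.

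The promoters of ANXA1 and ANXA2 are shown because ANXA1 was the annexin with the largest difference in Delta47 and ANXA2 had the highest value of the 7 there. Each sequence holds the 250 bases before the annotated start, 5′ to 3′ on the gene's strand, from RefSeq (GRCh38.p14, a later build than the hg19 of the tables). Capitals mark matches to TATAAA or to the cell cycle gene homology region (CHR), searched as TTTGAA or TTCGAA on both strands. The CHR is known as the element through which FOXM1 is brought to many cell cycle promoters by the MuvB complex.
ANXA1 chr9:73151615-73151864 (plus strand): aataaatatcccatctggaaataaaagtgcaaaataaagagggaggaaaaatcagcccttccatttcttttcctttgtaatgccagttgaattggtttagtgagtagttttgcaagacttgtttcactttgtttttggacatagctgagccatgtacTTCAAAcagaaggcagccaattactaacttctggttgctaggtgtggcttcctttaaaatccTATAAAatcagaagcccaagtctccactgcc
ANXA2 chr15:60397987-60398236 (minus strand): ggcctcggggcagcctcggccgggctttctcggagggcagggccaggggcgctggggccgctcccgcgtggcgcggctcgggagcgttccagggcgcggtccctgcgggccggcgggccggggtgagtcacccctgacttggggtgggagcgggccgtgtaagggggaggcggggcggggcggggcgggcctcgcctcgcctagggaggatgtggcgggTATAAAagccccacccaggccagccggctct
The ANXA1 window held 0 CpG dinucleotides and 38.4% G and C, and 6.1% of 35116 RefSeq promoter windows of the same length held as few CpG. The ANXA2 window held 28 CpG and 78% G and C. Both had TATAAA from 31 to 26 bases before the start, a string found in 10.7% of all windows. The ANXA1 window had 1 CHR match (TTCAAA, 93 to 88 bases before the start), against 14.3% of all windows with at least 1. The forkhead string TAAACA, present in 11% of all windows on either strand, was in none of the 11 windows of the 7 genes. Windows of the other 5 genes held between 5 and 36 CpG, where the median of all windows is 11. These matches describe letters in a window and are not binding sites.

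FOXM1 transcript in OPM2 averaged 277.5 ± 14.4 FPKM in KO1R, 106.7 ± 1.85 in KO1EV, 62.13 ± 6.69 in KO2, 92.06 ± 1.08 in KO1 and 175.9 ± 0.804 in WT (SD, n = 3 each). In Delta47 it averaged 99.37 ± 4.37 in KO2R, 46.19 ± 0.883 in KO2, 47.95 ± 1.85 in KO1 and 88.92 ± 1.88 in WT. Plasma cell markers, 11 of 12 of which were in the tables, summed to 4602.95 to 4618.65 in KO2R, 3472.66 to 3512.27 in KO2, 4695.87 to 4779.73 in KO1 and 4814.84 to 4936.62 in WT of Delta47, and CD27 was at or below 0.13 in every library of both lines. The lower sum of KO2 was carried mostly by JCHAIN (mean 1493 in KO2 and 2851 in WT). SLAMF7 (13.96 to 14.66 in KO2 and 95.23 to 97.47 in WT) and TNFRSF17 (65.78 to 69.73 and 111 to 121.5) were lower in KO2 as well. So were IRF4 (189.2 to 194.36 and 245.29 to 264.11) and XBP1 (580.45 to 584.69 and 633.43 to 658.37). SDC1 (mean 291.7 in KO2 and 171.1 in WT), MZB1 (494.5 and 397.7), CD38 (68.06 and 53.05), POU2AF1 and PRDM1 were higher in KO2. Myeloid cell markers, relevant because ANXA1 is abundant in myeloid cells, were near 0 in Delta47. All 7 myeloid markers in that table were below 1, and their sum was 0.92 to 1.42 in KO2R, 0.97 to 1.17 in KO2, 1.11 to 1.3 in KO1 and 0.85 to 0.97 in WT. The 8 stromal or endothelial markers summed to 16.73 to 17.93 in KO2R, 18.17 to 20.75 in KO2, 6.69 to 7.9 in KO1 and 6.25 to 7.45 in WT. PECAM1 was the largest part in KO2R and KO2 (13.89 to 15.58 in KO2), and ACTA2 in KO1 and WT (4.41 to 5.72 in WT, with PECAM1 at 1.12 to 1.28). B cell markers summed to 64.58 to 69.03 in KO2R, 48.42 to 50.99 in KO2, 55.19 to 59.9 in KO1 and 31.42 to 35.99 in WT, nearly all of it CD79B, with PAX5 and CD79A at or below 0.14. Epithelial markers, 7 of 8 in the table, summed to 12.41 to 13.08 in KO2R, 9.77 to 11.36 in KO2, 8.05 to 8.67 in KO1 and 5.58 to 6.5 in WT. T and NK cell markers summed to 148.61 to 150.91 in KO2R, 176.14 to 189.39 in KO2, 171.94 to 180.59 in KO1 and 163.37 to 164.27 in WT, nearly all of it CD4. The part of these marker differences in the annexin results was not tested. In OPM2 the library KO2 replicate 3 stood apart. Over genes, the SD of its deviation from the mean of the other 2 KO2 libraries was 0.533 (log2). The other OPM2 libraries, measured likewise, had 0.1 to 0.282. The highest of these was KO2 replicate 1, whose reference mean included replicate 3. KO1EV replicate 3 had 0.271, against 0.158 in each of the other KO1EV libraries, and results are also given without both. In these bulk libraries fewer cells of a type and less RNA per cell cannot be told apart.

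The members differed in level and between lines. Per length, the OPM2 cells carried mostly ANXA2, ANXA5 and ANXA11, in WT 31.2%, 33.4% and 22.1% of the summed FPKM of the 7 genes. ANXA7 made up 11.2% and ANXA4 2% of that sum. ANXA1 and ANXA6 were at or near 0 in OPM2, with at most 0.08 and 0.1 FPKM in any of the 15 libraries, and did not pass the filter (a value of at least 1 in 3 libraries). So 5 of 7 genes were tested in OPM2 and 7 of 7 in Delta47. ANXA6 was well above that filter in every Delta47 library (28.03 to 57.53). ANXA2 held 67.2% of the summed expression value of the 7 genes in KO2R, 61.7% in KO2, 61.7% in KO1 and 59.5% in WT of Delta47. ANXA2 has processed pseudogenes of near-identical sequence, which were not analysed here, so its value is uncertain as far as the authors' counting could split or pool such reads.

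**Figure D1:**
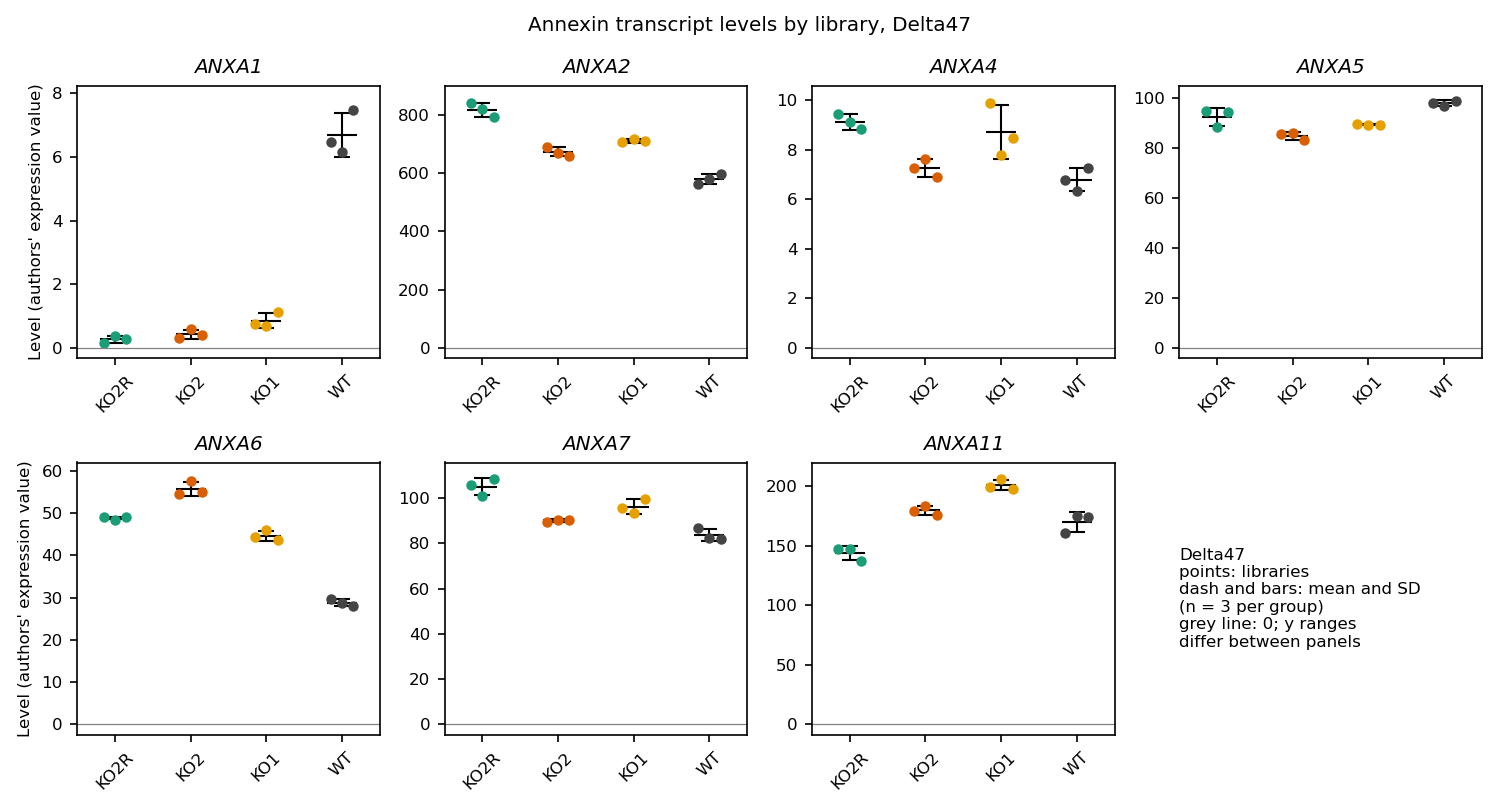
Levels of the 7 annexin genes in Delta47, as the authors' expression value (y axis), by group (x axis: KO2R, KO2, KO1, WT). Points are libraries, dashes means and bars SD (n = 3); ANXA1 is at 1.11 or less in the 9 KO2R, KO2 and KO1 libraries and at 6.16 or more in WT, and ANXA6 is lowest in WT.

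ANXA1, whose protein binds S100A11 and signals through formyl peptide receptors, was close to absent from the knockout clones of Delta47. Its expression values were 0.76, 0.69 and 1.11 in KO1 and 0.31, 0.58 and 0.39 in KO2, against 6.46, 6.16 and 7.47 in WT. Every knockout library lay far below every WT library. The mean was 7.85-fold lower in KO1 and 15.7-fold lower in KO2 than in WT. On the log2(value + 1) scale, which understates the change of low genes, the difference was −2.06 ± 0.10 (SE) in KO1 and −2.43 ± 0.10 in KO2. With 0.1 added in place of 1 it was −2.85 in KO1 and −3.72 in KO2. This fall chose the genes, and ANXA1 passed the filter in Delta47 only through the WT libraries and 1 KO1 library, so these values are a description with no test.

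ANXA1 stayed low in the Delta47 clone that carried FOXM1c. KO2R had 0.15, 0.37 and 0.29, against 0.31, 0.58 and 0.39 in KO2. The groups overlapped and all 6 values were below 1, the value that the filter asks for, so no test is given. FOXM1 itself was 2.15-fold higher in KO2R than in KO2 and its mean there lay above that of WT. The order of the ANXA1 means was WT, KO1, KO2 and KO2R, in which the KO2 and KO2R libraries overlapped. Every KO2 value lay below every KO1 value, at levels near the filter, also with no test. In OPM2, ANXA1 was listed at 0 in all KO1 libraries, at 0.07, 0.08 and 0 FPKM in KO2 and at 0.04 in each WT library, so no fall could have been seen there.

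ANXA6, a large annexin with a duplicated core that binds membranes and takes part in their repair, went the opposite way in Delta47. It had 44.37, 45.9 and 43.62 in KO1 and 54.4, 57.53 and 54.87 in KO2, against 29.75, 28.65 and 28.03 in WT. No knockout library overlapped WT, and the means were 1.55-fold and 1.93-fold of WT (log2 difference 0.61 ± 0.04 and 0.93 ± 0.04). These contrasts were used to choose the genes and carry no test. KO2R had 49.04, 48.46 and 49.02, all below KO2 by −0.18 ± 0.04 (adjusted p = 0.00047) and all above the highest WT library. So ANXA6 moved toward the WT level by a small part of the difference. Between the clones it was higher in KO2 than in KO1 by 0.31 ± 0.04 (adjusted p = 8.55e-06), with no overlap.

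ANXA2, the partner of S100A10, had 706.92, 719.17 and 709.47 in KO1 and 690.65, 670.81 and 659.47 in KO2, against 562.68, 580.93 and 596.72 in WT of Delta47. All knockout libraries were above WT, by 0.30 ± 0.03 in KO1 and 0.22 ± 0.03 in KO2. KO2R had 842.04, 821.85 and 793.86, above KO2 and farther from WT (0.28 ± 0.03, adjusted p = 1.92e-06). With quantile scaling between libraries this last difference was 0.000 (adjusted p = 0.999), so its direction depends on the scaling.

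The other 4 annexins of Delta47 differed less. ANXA5 was the only one besides ANXA1 that was lower in both clones than in WT. It had 89.8, 89.36 and 89.43 in KO1 and 85.54, 86.22 and 83.2 in KO2, against 98.21, 96.76 and 99.01 in WT (−0.13 ± 0.03 and −0.20 ± 0.03, no test). With 94.97, 88.41 and 94.48 in KO2R it was above KO2 (0.12 ± 0.03, adjusted p = 0.00516) and below every WT library. ANXA7, whose protein binds sorcin and acts in membrane fusion, had 105.97, 100.98 and 108.41 in KO2R, against 89.55, 90.46 and 90.54 in KO2 (0.22 ± 0.04, adjusted p = 9.74e-05). Its clones were above WT by 0.20 ± 0.04 in KO1 and 0.11 ± 0.04 in KO2, so KO2R lay farther from WT than KO2 did. With the transcript length trend removed, the difference from WT was 0.14 in KO1 and 0.045 in KO2. ANXA4, which coats damaged membranes, had 9.44, 9.11 and 8.82 in KO2R, against 7.25, 7.63 and 6.89 in KO2 (0.30 ± 0.07, adjusted p = 0.00226). Its KO1 values were 9.89, 7.77 and 8.46, all above the 6.79, 6.33 and 7.25 of WT, whereas KO2 overlapped WT (no test). ANXA11, which tethers RNA granules to lysosomes and binds ALG-2, had 147.44, 147.34 and 137.29 in KO2R, against 179.5, 183.68 and 176.16 in KO2 (−0.32 ± 0.04, adjusted p = 3.35e-06). Its 3 KO2R values were below those of every KO2, KO1 and WT library, where KO1 had 199.24, 206.2 and 198.22 and WT had 160.75, 174.84 and 174.6.

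Among the 6 annexins other than ANXA1, KO2R against KO2 gave 4 called higher (ANXA2, ANXA4, ANXA5 and ANXA7) and 2 called lower (ANXA6 and ANXA11), where 62% of all tested genes were called, 25.2% higher and 36.8% lower. Since the KO2 libraries were also used to choose the genes, and no empty-vector group was analysed in Delta47, effects of FOXM1c and of the vector and sort cannot be told apart. The calls of ANXA4, ANXA5, ANXA6, ANXA7 and ANXA11 held in every alternative tried, and that of ANXA2 in all but the quantile scaling. Between the clones, KO2 against KO1 gave 1 higher (ANXA6) and 2 lower (ANXA4 and ANXA11) of these 6, where 42.1% of all genes were called (24.9% higher, 17.2% lower). ANXA11 was lower by −0.16 ± 0.04 (adjusted p = 0.00389). The call of ANXA4 (−0.23 ± 0.07, adjusted p = 0.0194) was lost without KO2 replicate 3 (adjusted p = 0.0751) or KO1 replicate 1 (adjusted p = 0.123). ANXA2 was not called (−0.08, adjusted p = 0.0643) and turned to 0.09 (adjusted p = 0.0266) with quantile scaling. Against WT, 52.6% of all genes were called in KO1 (28.9% higher, 23.7% lower) and 43.6% in KO2 (28.4% higher, 15.2% lower). Annexin calls are not counted in these 2 comparisons, because they were used to choose the genes.

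**Figure D2:**
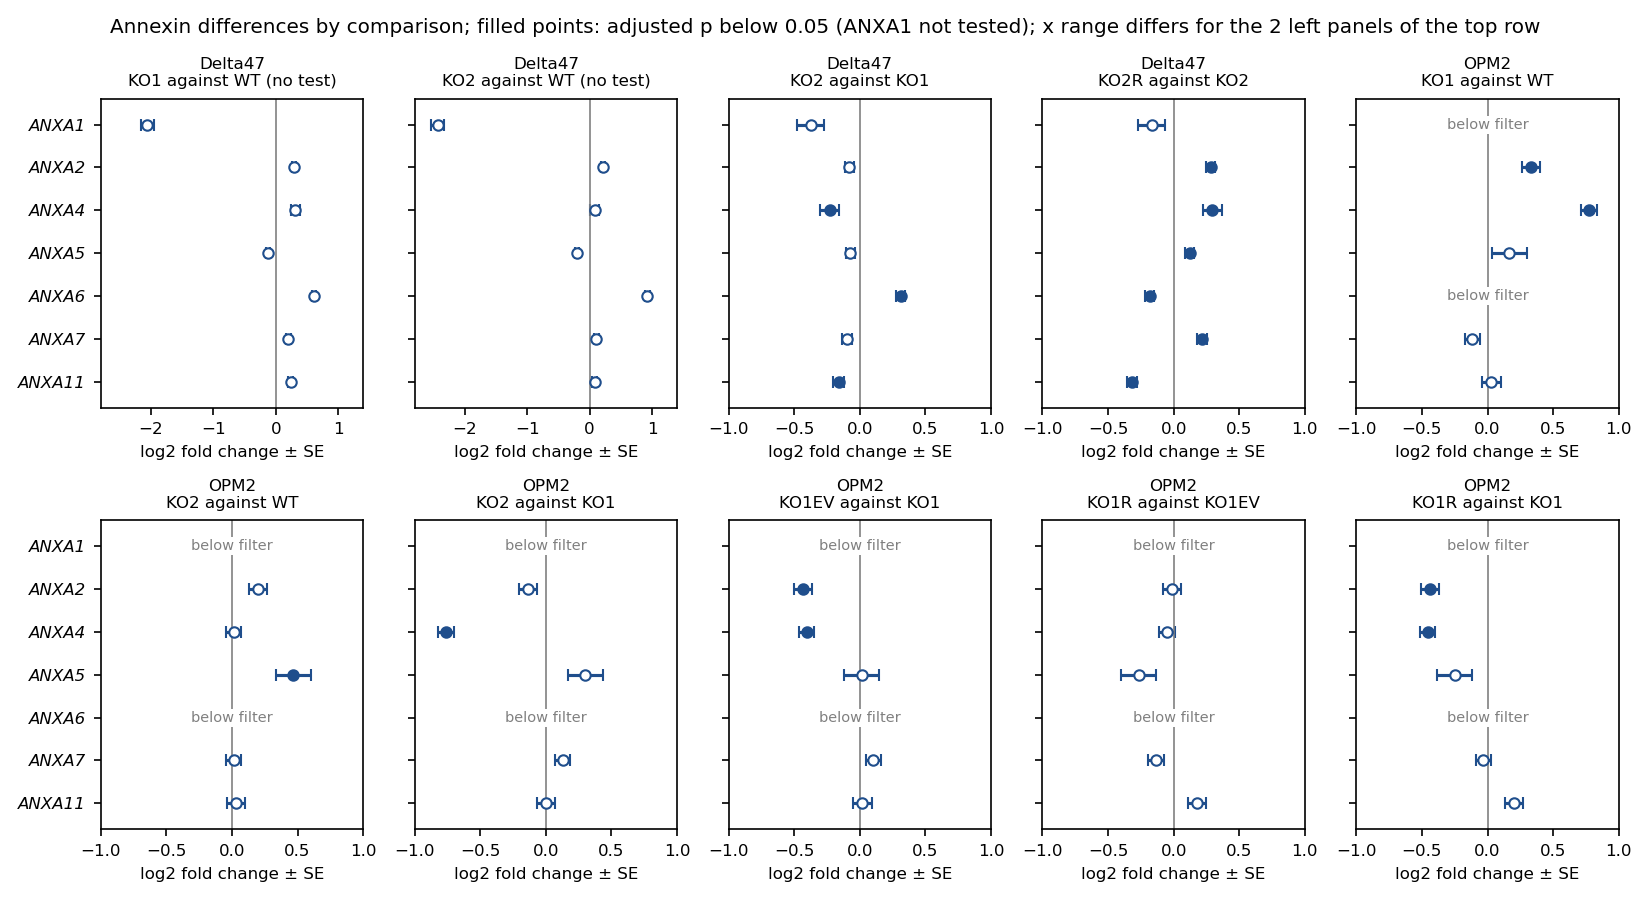
Log2 fold change ± SE (x axis, on the log2(value + 1) scale) of each annexin (y axis) in the 10 comparisons, filled where the adjusted p was below 0.05; ANXA1 was not tested, and the Delta47 comparisons with WT carry no test and have a wider x range. ANXA4 has the largest OPM2 differences (0.77 in KO1 against WT and −0.76 in KO2 against KO1), and the Delta47 KO2R value of ANXA2 (0.28) is 0.000 with quantile scaling.

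In OPM2 the KO1 clone had more ANXA4 and ANXA2 than WT. ANXA4 had 20.3, 19.14 and 20.08 FPKM in KO1, against 11.57, 10.44 and 11.58 FPKM in WT. The groups lay far apart, with a mean 1.77-fold of WT (0.77 ± 0.06, adjusted p = 1.34e-06). ANXA2 had 214.36, 228.09 and 226.52 FPKM in KO1, against 181.01, 170.85 and 178.85 FPKM in WT, again with no overlap (0.33 ± 0.07, adjusted p = 0.00464). Of the 5 tested annexins these 2 were called, both higher, where 21.2% of all genes were called (14.5% higher, 6.72% lower). The B cell marker sum differed alongside ANXA4 across these groups, at 6.45 to 9.35 FPKM in KO1R, 7.84 to 10.13 in KO1EV, 2.53 to 3.55 in KO2, 9.1 to 9.34 in KO1 and 2.73 to 3.02 in WT. It rests on 6 of 8 listed genes, nearly all of it CD79B, and its part in the result was not tested. ANXA5 (0.17 ± 0.13, adjusted p = 0.359), ANXA7 (−0.12 ± 0.06, adjusted p = 0.165) and ANXA11 (0.03 ± 0.07, adjusted p = 0.768) were not called. All KO1 libraries lay above WT for ANXA5 and below WT for ANXA7. ANXA5 was called in a fit of KO1 and WT alone (adjusted p = 0.0123), and ANXA7 with the transcript length trend removed (adjusted p = 0.0376). Without KO2 replicate 3 and KO1EV replicate 3 both were called (adjusted p = 0.00122 for ANXA5 and 0.0324 for ANXA7).

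The KO2 clone of OPM2 did not show the ANXA4 difference. ANXA4 had 11.23, 10.76 and 11.9 FPKM in KO2, overlapping WT (0.01 ± 0.06, adjusted p = 0.919), and against KO1 it was lower by −0.76 ± 0.06 (adjusted p = 9.24e-07). It was the 1 annexin of 5 called in KO2 against KO1, where 29.9% of all genes were (10.8% higher, 19.1% lower). ANXA5 was the 1 of 5 called in KO2 against WT, where 14.4% of all genes were (6.54% higher, 7.82% lower), with a difference of 0.47 ± 0.13 (adjusted p = 0.0319). Its values were 303.77, 307.09 and 193.07 FPKM in KO2, against 200.65, 183.97 and 183.78 FPKM in WT. The first 2 KO2 libraries were far above WT, and replicate 3, which stood apart over all genes, lay inside the WT range. Without KO2 replicate 3 the difference was 0.69 (adjusted p = 3.06e-07), and ANXA2 was then called as well (0.26, adjusted p = 0.00388). Without either other KO2 library or any 1 WT library, the ANXA5 call was lost (adjusted p = 0.056 to 0.106). It was also lost with quantile scaling (adjusted p = 0.124), with only the KO2 and WT libraries in the fit (0.268) and with the transcript length trend removed (0.0665). ANXA2 itself had 214.3, 208.79 and 186.64 FPKM in KO2, all above WT, and was not called with all libraries (0.20 ± 0.07, adjusted p = 0.0739). Against KO1, ANXA5 was not called (0.30 ± 0.13, adjusted p = 0.105) but was higher by 0.52 without KO2 replicate 3 (adjusted p = 1.54e-06).

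**Figure D3:**
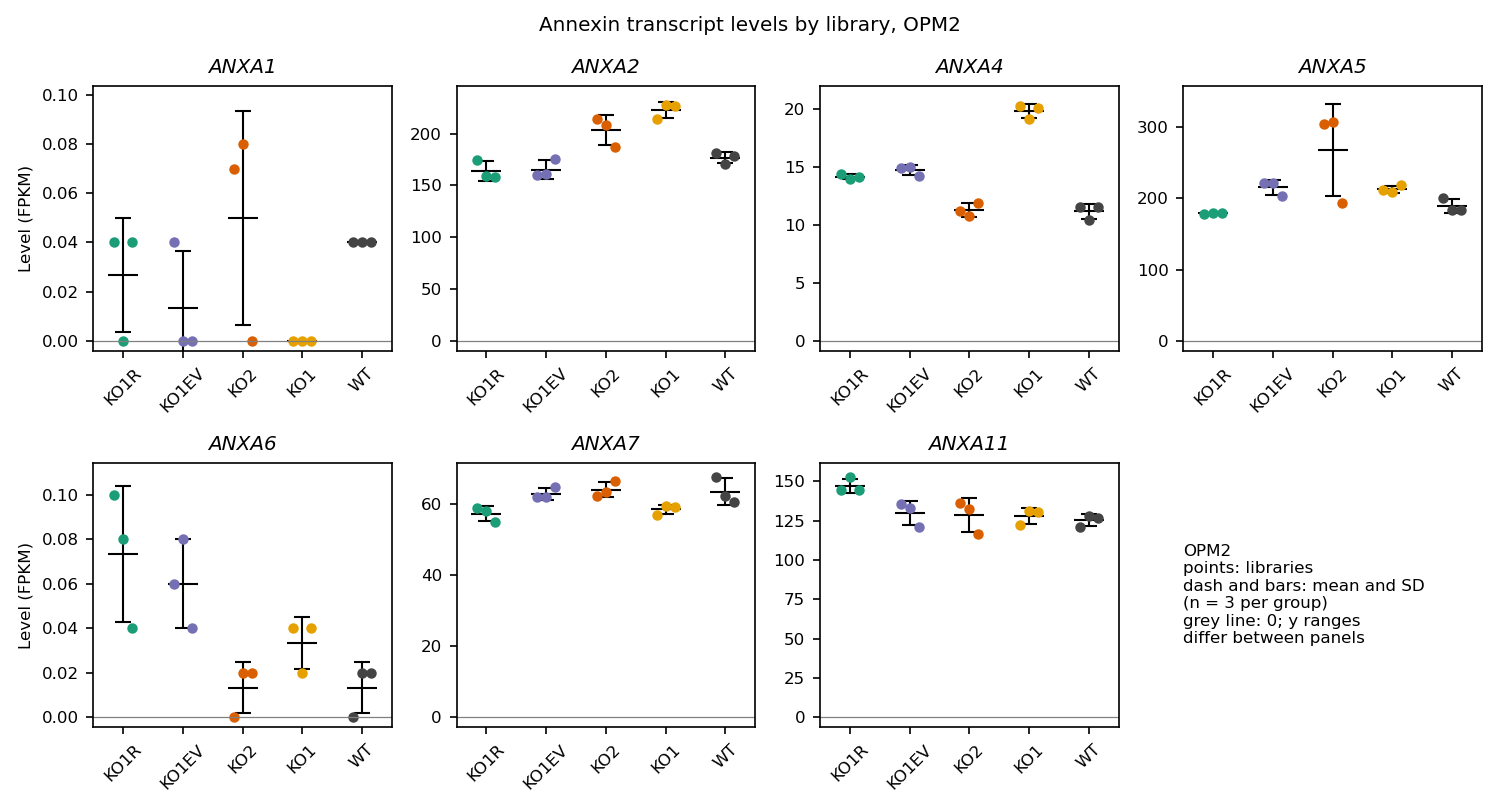
Levels of the 7 annexin genes in OPM2 in FPKM (y axis), by group (x axis: KO1R, KO1EV, KO2, KO1, WT). Points are libraries, dashes means and bars SD (n = 3); ANXA4 is highest in KO1 (19.14 to 20.3), ANXA5 in KO2 replicate 3 is at 193.07 against 303.77 and 307.09 in the other KO2 libraries, and ANXA1 and ANXA6 stay at or below 0.1.

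The empty vector went with lower ANXA2 and ANXA4 in the KO1 background. ANXA2 had 159.58, 160.58 and 175.49 FPKM in KO1EV, below the KO1 values given above and overlapping those of WT (KO1EV against KO1 −0.43 ± 0.07, adjusted p = 0.00217). ANXA4 had 14.95, 15.01 and 14.25 FPKM in KO1EV, between KO1 and WT (−0.41 ± 0.06 against KO1, adjusted p = 0.00125). These 2 of 5 were called in this comparison, where 4.95% of all genes were called (1.78% higher, 3.17% lower). The vector, its infection and the GFP sort cannot be told apart here.

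Against that empty-vector control, FOXM1c brought no called annexin difference: by limma 0 of 5 passed the threshold in KO1R against KO1EV, where 8.23% of all genes were called (3.1% higher, 5.12% lower), and 2 of 5 had an unadjusted p under 0.05. ANXA2 had 174.63, 159.57 and 157.66 FPKM in KO1R, overlapping KO1EV (−0.01 ± 0.07, adjusted p = 0.932), and ANXA4 had 14.44, 13.98 and 14.12 FPKM (−0.05 ± 0.06, adjusted p = 0.608). The direction of these small values turned with quantile scaling. ANXA11 had 144.51, 152.39 and 144.46 FPKM in KO1R, all above the 135.42, 133.01 and 121.14 FPKM of KO1EV (0.18 ± 0.07, adjusted p = 0.141). ANXA7 had 58.66, 58.02 and 54.8 FPKM in KO1R, all below the 61.8, 61.9 and 64.79 FPKM of KO1EV (−0.13 ± 0.06, adjusted p = 0.185). ANXA5 had 178.05, 179.2 and 179.2 FPKM in KO1R, all below the 221.66, 221.14 and 202.84 FPKM of KO1EV (−0.27 ± 0.13, adjusted p = 0.25). In a fit of these 2 groups alone ANXA5 was called lower (adjusted p = 0.018). Without KO2 replicate 3 and KO1EV replicate 3, ANXA5 was called lower (−0.31, adjusted p = 6.99e-05) and ANXA11 higher (0.13, adjusted p = 0.038), so the lack of calls depends on these libraries. Set against untransduced KO1, KO1R was called lower for ANXA2 (−0.44 ± 0.07, adjusted p = 0.000594) and ANXA4 (−0.46 ± 0.06, adjusted p = 0.000175), 2 of 5 where 21.7% of all genes were called (6.26% higher, 15.4% lower). That comparison shares its KO1 libraries with KO1EV against KO1. ANXA5 (−0.25) and ANXA11 (0.20) were called as well in a fit of KO1R and KO1 alone (adjusted p = 0.000366 and 0.00382) and without the same 2 libraries (adjusted p = 4.93e-05 and 0.00057).

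ANXA4 in OPM2 thus followed the order KO1, KO1EV, KO1R, KO2 and WT, in which KO1EV and KO1R overlapped, as did KO2 and WT. FOXM1 transcript followed another order, KO1R, WT, KO1EV, KO1 and KO2. The summed level of the 7 annexins in OPM2 was 561.3 ± 10.2 FPKM in KO1R, 587.9 ± 8.2 in KO1EV, 674.9 ± 87.4 in KO2, 642 ± 15.5 in KO1 and 566.4 ± 13.7 in WT. In Delta47 the summed expression value was 1219.2 ± 28.5 in KO2R, 1091.9 ± 18.4 in KO2, 1153.1 ± 8.2 in KO1 and 974.2 ± 21.8 in WT, which ANXA2 dominates.

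Other annexin genes were low. ANXA9, a family member that has lost calcium binding in its core, had 4.67, 4.33 and 3.67 in KO2 and 2.88 to 3.88 in KO1, against 2.39, 2.36 and 2.21 in WT of Delta47. In KO2R it was 2.32 to 2.93, lower than in KO2 (−0.50, adjusted p = 0.000198). ANXA3 was at or below 0.46 in every library of both lines and was not tested. In Delta47 it had 0 to 0.05 in KO2R, 0.04 to 0.11 in KO2 and 0 to 0.05 in KO1, against 0.17 to 0.46 in WT. ANXA8 was at or below 0.09 in Delta47. ANXA2R, which encodes a proposed ANXA2 receptor and no annexin, was higher in KO2R (1.7 to 2.57) than in KO2 (1 to 1.32) of Delta47 (0.55, adjusted p = 0.000261). In OPM2, neither ANXA9 (0.88 to 3.39 FPKM) nor ANXA2R (3 to 4.64 FPKM) was called in any comparison.

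S100 proteins are the small partners that bridge annexin molecules. S100A10 had 180.58, 180.41 and 179.05 in KO1 and 155.53, 149.29 and 151.91 in KO2, against 251.61, 265.31 and 273.87 in WT of Delta47. It was thus lower in both clones, where its partner ANXA2 was higher (−0.55 and −0.79, no test in contrasts used to choose the genes). KO2R had 168.8, 160.17 and 165.3, slightly above KO2 (0.11, adjusted p = 0.0102) and far below WT. S100A11, the ANXA1 partner, averaged 204.4 in KO1 and 201.6 in KO2, against 257.6 in WT. It stayed at 195.6 in KO2R (−0.05 against KO2, adjusted p = 0.469). S100A6, which binds several annexins, fell in KO2 against KO1 (−0.51, adjusted p = 1.06e-07) and rose in KO2R against KO2 (0.55, adjusted p = 1.47e-08). Of 5 tested S100 genes in Delta47, 3 were called higher and 1 lower in KO2R against KO2, where 25.2% of all genes were called higher and 36.8% lower. Their median was 0.11, against −0.05 over all genes. The 1 lower gene was at 0 in every KO1 and WT library and passed the filter only through KO2 and KO2R libraries. Its call is therefore not read as a result. In OPM2, where S100A10 was not analysed, S100A11 was the 1 tested S100 gene. It was higher in KO2 than in WT (277.6 and 216.2 FPKM, 0.35, adjusted p = 0.0353), and KO2 replicate 3 (227.72 FPKM) again lay near WT, as for ANXA5.

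**Figure D4:**
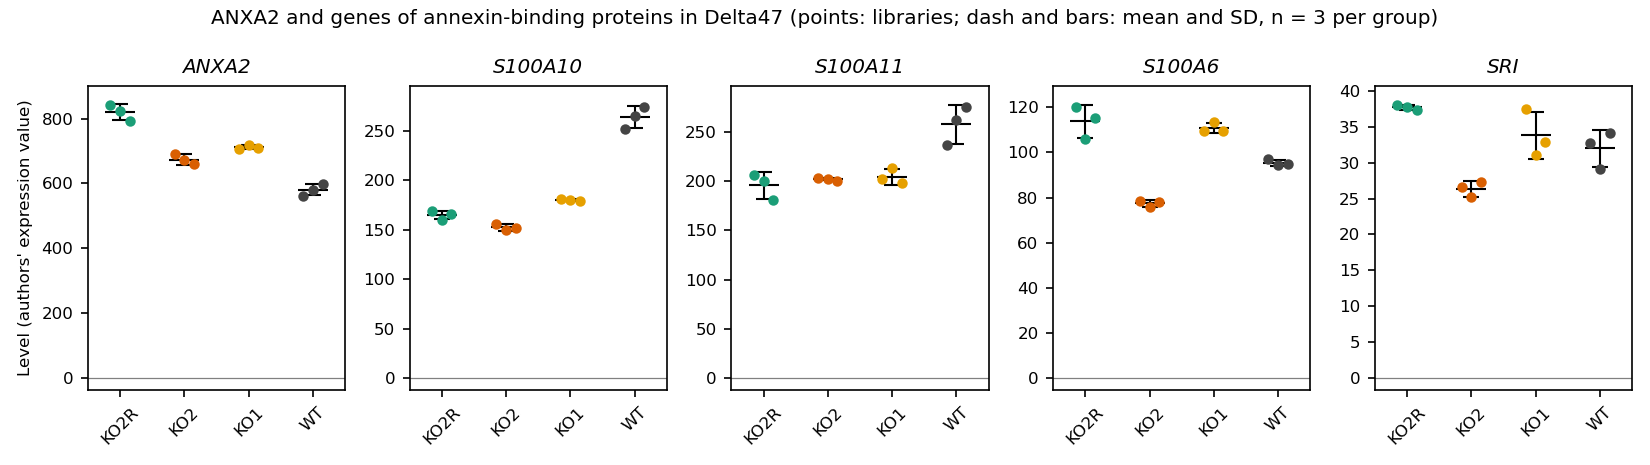
ANXA2 and the genes of 4 annexin-binding proteins (S100A10, S100A11, S100A6 and sorcin, SRI) in Delta47, as the authors' expression value (y axis), by group (x axis). Points are libraries, dashes means and bars SD (n = 3); S100A10 is lowest in KO2 (149.29 to 155.53) and highest in WT (251.61 to 273.87), while ANXA2 is lowest in WT, and the higher ANXA2 of KO2R over KO2 is 0.000 (log2) with quantile scaling.

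Calcium-bound partners of ANXA7 and ANXA11 moved in Delta47 KO2R. SRI, encoding sorcin, an ANXA7 partner, had 38.06, 37.79 and 37.28 in KO2R, against 26.68, 25.17 and 27.35 in KO2 (0.50, adjusted p = 4.25e-06). PDCD6, encoding ALG-2, which binds ANXA7 and ANXA11, had 75.59, 72.71 and 73.84 in KO2R, against 59.16, 56.4 and 58.24 in KO2 (0.35, adjusted p = 1.09e-06). ANXA7 and its sorcin partner were thus both higher in KO2R, while ANXA11 was lower. AHNAK, a giant scaffold protein recruited by ANXA2 and S100A10, had 7.6, 9.49 and 9.41 in KO2R, against 19.48, 16.43 and 16.51 in KO2 (−0.91, adjusted p = 2.53e-07). CAPN2, a calpain subunit, and EHD1, a membrane-shaping ATPase, were also lower in KO2R (−0.40 and −0.43, adjusted p = 8.14e-08 and 5.88e-07). Of 14 tested genes for membrane repair and calcium-bound partners, 3 were called higher and 8 lower in KO2R against KO2, where 25.2% of all genes were called higher and 36.8% lower. Their median was −0.14, against −0.05 over all genes. In OPM2 KO1R against KO1EV, 0 of 15 were called by limma, where 8.23% of all genes were (median −0.08, all tested genes −0.06).

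Genes of phosphatidylserine exposure, the lipid that ANXA5 binds, were called 1 higher and 5 lower of 10 in Delta47 KO2R against KO2, a share of calls near the 62% of all genes. In OPM2 KO1 against WT, where 14.5% of all genes were called higher and 6.72% lower, 2 of 9 were higher and 2 lower, with ATP11A, a flippase gene, at 5.25 in KO1 and 3.56 FPKM in WT (0.45, adjusted p = 0.00184). ATP11A was lower again in KO1EV than in KO1 (−0.47, adjusted p = 0.00372). The list of ANXA1 receptors and the plasminogen system had 4 tested genes in each line, PLAUR, SERPINE2, PLGRKT and ENO1. No formyl peptide receptor was among them, so ANXA1 receptors were not tested. PLAUR, the urokinase receptor, had 1.8, 1.41 and 1.33 FPKM in OPM2 KO1, against 0.73, 0.69 and 0.81 FPKM in WT. It had 0.93, 0.57 and 0.54 FPKM in KO1EV and 1.55, 1.53 and 1.37 FPKM in KO1R. In OPM2, PLAUR passed the filter only through KO1 and KO1R, where it was high, so these values are a description with no test. In OPM2 KO1 against WT, 3 of these 4 were called higher, against 14.5% of all genes. That count includes PLAUR, and SERPINE2 was also below 1 in every WT library, so nothing is read from it. PLGRKT, a plasminogen receptor gene, had a higher value in Delta47 KO2R (14.51, against 10.38 in KO2, 0.45, adjusted p = 0.000148), and it was 1 of the 2 called higher among 4 tested there, against 25.2% of all genes.

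Other genes of calcium-binding C2 domain proteins, the copines, extended synaptotagmins and PRKCA, included several that were higher in OPM2 KO1. PRKCA, a calcium-dependent protein kinase C, had 4.52, 4.71 and 4.74 FPKM in KO1, against 2.54, 3.21 and 2.98 FPKM in WT (0.54, adjusted p = 0.000443). It was lower in KO1EV than in KO1 (−0.59, adjusted p = 0.000684) and in KO2 than in KO1 (−0.63, adjusted p = 5.61e-05), and not called in KO1R against KO1EV (−0.17, adjusted p = 0.221). CPNE2, a copine gene, differed likewise, by 0.58 in KO1 against WT (adjusted p = 0.000922) and −0.57 in KO1EV against KO1 (adjusted p = 0.00282). Of 10 tested genes of that kind, 4 were called higher and 1 lower in KO1 against WT, where 14.5% of all genes were higher and 6.72% lower, with a median of 0.34 against 0.08 over all genes. In Delta47 KO2R against KO2, 2 of 8 were higher and 4 lower, where 25.2% of all genes were called higher and 36.8% lower.

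Glucocorticoid response genes, listed because ANXA1 is induced by glucocorticoids in other cells, differed among themselves in Delta47. TXNIP had 13.48, 14.37 and 14.15 in KO1 and 13.03, 12.01 and 12.4 in KO2, against 7.03, 6.98 and 7.58 in WT, and it was higher still in KO2R than in KO2 (0.75, adjusted p = 5.42e-09). FKBP5 was not far from WT in either clone (−0.05 and 0.03) and lower in KO2R than in KO2 (−0.41, adjusted p = 8.87e-07). TSC22D3, encoding GILZ, was lower in KO1 and KO2 than in WT (−0.51 and −0.19). Of 8 tested genes, 1 was called higher and 5 lower in KO2R against KO2, where 25.2% of all genes were called higher and 36.8% lower. Their median was −0.21, against −0.05 over all genes. In OPM2 KO1 against WT, 1 of 8 was called higher and 0 lower, against 14.5% and 6.72% of all genes. TSC22D3, not called there, had 104.87 to 126.19 FPKM in KO1, all below the 187.52 to 198.36 FPKM of WT. In KO2 it had 271.85, 268.66 and 37.2 FPKM, the last in the library that stood apart.

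The genes whose levels ran most like ANXA1 over the 12 Delta47 libraries, among 7948 genes with a mean of at least 5, were ST6GAL1 (Pearson r = 0.99), USP21 (0.989), PRPF3 (0.985), PDE7A (0.985) and PMVK (0.983). All 5 were lower in the clones than in WT and were not higher in KO2R, as in PMVK with 36.78 ± 0.498 in KO2R, 41.59 ± 0.898 in KO2, 44.35 ± 1.62 in KO1 and 70.52 ± 1.92 in WT. Their differences were much smaller than that of ANXA1. In OPM2, where ANXA1 did not pass the filter, ANXA4 had the widest range of group means (0.77, log2) and was used in its place. Over 15 libraries and 7638 genes the most similar were CERS2 (r = 0.972), PDZD8 (0.969), MT1E (0.951), SMARCD2 (0.949) and SLC18A2 (0.946). MT1E, a metallothionein gene, averaged 40.51 ± 1.21 FPKM in KO1R, 35.06 ± 1.98 in KO1EV, 10.98 ± 5.16 in KO2, 77 ± 5.61 in KO1 and 10.23 ± 1.59 in WT. These correlations describe libraries that share groups, and carry no test.

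**Figure D5:**
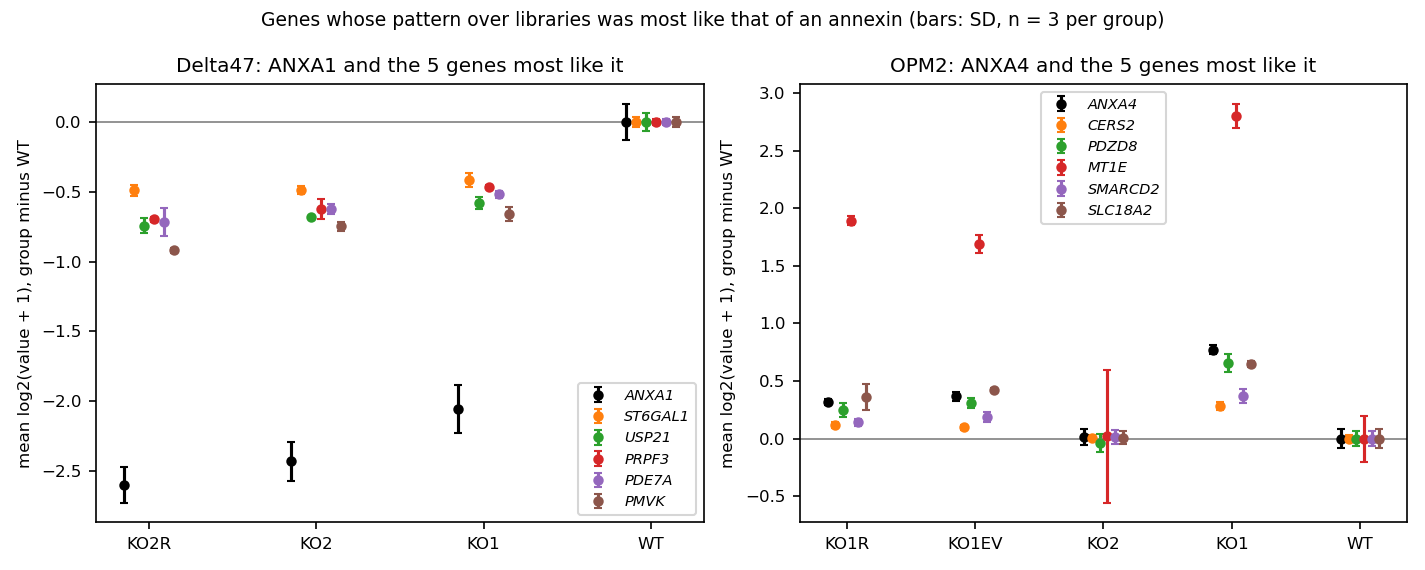
Mean log2(value + 1) of each group minus WT (y axis) by group (x axis) for ANXA1 and the 5 genes most like it in Delta47 (left) and ANXA4 and the 5 most like it in OPM2 (right); bars are SD (n = 3). ANXA1 lies at −2.06 in KO1 and −2.43 in KO2 while the 5 similar genes fell less, and ANXA4 lies at 0.77 in KO1.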

How the data were processed

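Poly-A RNA from 30 samples of OPM2 and Delta47 was sequenced, and 27 libraries were used. The deposited OPM2 values are FPKM, per the file headers. The Delta47 header names no unit, so the deposited numbers were handled as signal and are called the authors' expression value. The genome build is hg19, per the submitters' processing notes, and for aligner and counter nothing is given in the sources used here. Depth is unknown, so no counting error is given; column totals were 510776 to 566016 in OPM2 and 534185 to 633778 in Delta47. Per-sample columns that matched no sample by name, 3 in Delta47, were not used, so its empty-vector group was not analysed. Column names of Delta47 KO2R give no clone, and the R in them made the match. Gene symbols that a spreadsheet had made into dates (23 and 24) got their names back.

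The scale was log2(value + 1). A gene entered the fit if 3 libraries reached 1 (10309 genes in OPM2, 11001 in Delta47). One limma-trend model per line (limma 3.58.1, R 4.3.3) held all groups. Its moderated tests were two-sided, with Benjamini-Hochberg adjustment over all genes of a comparison, called at adjusted p below 0.05. The fit was tested on simulated data. The labels do not say whether the 3 replicates are separate cultures, so p-values measure a spread between libraries that may be technical. Alternatives were another pseudocount, no filter, quantile scaling, a fit of 2 groups and a replicate block. Each library of the 2 compared groups was also left out in turn. Further alternatives were OPM2 without the 2 libraries that stood apart, and removal of the trend with GENCODE transcript length, the last chosen after seeing the data.

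The members and lists were chosen with earlier results of these data known. Named genes were FOXM1, every annexin gene in the tables, up to 4 genes of each list with the smallest adjusted p in a line, and the 5 genes with the highest Pearson r with ANXA1 (in OPM2, with the annexin of widest range). S100A11 in Delta47, SRI in Delta47, TSC22D3 in OPM2 and single cell type markers such as PECAM1, ACTA2 and SLAMF7 were named after their values were seen. Promoter letters are RefSeq's (GRCh38.p14). One gene that the naming rule picked is not reported here. ANXA1 entered the Delta47 fit through WT and 1 KO1 library and chose the members, so no test of it is reported, apart from its place among the counted alternative values. Same-numbered OPM2 KO1 and WT libraries deviated together from their group means (r = 0.412, 0.152 and 0.209), which was taken from the data and not the labels. Differently numbered KO1 and WT libraries had r from −0.347 to 0.215.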

Additional observations from a re-analysis of the deposited data

Results flagged for a closer look

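Annexins for which the knockout clones of a line differed, by a test of KO2 against KO1 within the fit, were looked at again. In OPM2, ANXA4 was lower in KO2 than in KO1 (−0.76, adjusted p = 9.24e-07, limma), with 10.76 to 11.9 FPKM in KO2 and 19.14 to 20.3 FPKM in KO1. In Delta47, ANXA6 was higher in KO2 than in KO1 (0.31, adjusted p = 8.55e-06). ANXA11 (−0.16, adjusted p = 0.00389) and ANXA4 (−0.23, adjusted p = 0.0194) were lower in KO2 than in KO1, and the ANXA4 call was lost without KO2 replicate 3 (adjusted p = 0.0751) or KO1 replicate 1 (adjusted p = 0.123). Groups had 3 libraries, so single libraries were not tested as outliers.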

How the results depend on the processing

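With 558 alternative values of tested results, 496 kept direction and side of the threshold, 11 lost a call, 20 gained one and 31 changed sign, of which 1 had been called and 29 were not called before or after. These values include ANXA1 in Delta47 KO2 against KO1 and KO2R against KO2, with a lost call in KO2 against KO1 without KO1 replicate 3. Nothing is read from them for ANXA1. Counts below are genes called, then annexins. The cause of each change was not tested. In fits of just 2 groups, 5613 genes were called in OPM2 KO1 against WT (2187 in the model of all groups), 390 in KO2 against WT (1480, with 0 annexins), 1195 in KO2 against KO1 (3086), 1412 in KO1R against KO1EV (848, with 1 annexin) and 5174 in KO1R against KO1 (2236, with 4 annexins). Without KO2 replicate 3 and KO1EV replicate 3 together these were 6068 in KO1 against WT (4 annexins), 4243 in KO2 against WT (2), 6979 in KO2 against KO1 (2), 3302 in KO1EV against KO1, 2726 in KO1R against KO1EV (2) and 5581 in KO1R against KO1 (4). KO2 against WT had 0 annexins called with quantile scaling and with length removed, and KO2 against KO1 had 2 with length removed.

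Single libraries were left out only from the 2 groups compared, so KO2 replicate 3 was left out alone only in comparisons with KO2. Leaving out 1 such library gave 1224 to 1509 genes in OPM2 KO1 against WT, 937 to 3131 in KO2 against WT (0 to 2 annexins), 2169 to 6270 in KO2 against KO1 (1 to 2 annexins), 246 to 597 in KO1EV against KO1, 424 to 576 in KO1R against KO1EV and 1234 to 1973 in KO1R against KO1, the highest of the KO2 counts without KO2 replicate 3. Signs turned as follows. With quantile scaling these were ANXA11 (−0.023) and ANXA7 (−0.043) in KO2 against WT, ANXA11 in KO2 against KO1 (−0.059), ANXA5 (−0.035) and ANXA11 (−0.013) in KO1EV against KO1, ANXA2 (0.003) and ANXA4 (0.007) in KO1R against KO1EV, and in Delta47 ANXA2 in KO2 against KO1 (0.087) and in KO2R against KO2 (0). With length removed they were ANXA11 in KO1 against WT (−0.031), ANXA7 in KO2 against WT (−0.005), ANXA2 in KO1R against KO1EV (0.038) and ANXA7 in KO1R against KO1 (0.024). Without both libraries that stood apart they were ANXA7 (−0.013) and ANXA4 (−0.023) in KO2 against WT and ANXA2 in KO1R against KO1EV (0.033).

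Without 1 library of the groups compared, OPM2 ranges were −0.015 to 0.069 for ANXA11 and −0.006 to 0.057 for ANXA5 in KO1EV against KO1, −0.044 to 0.071 for ANXA11 in KO2 against KO1, −0.014 to 0.101 for ANXA11, −0.033 to 0.044 for ANXA4 and −0.021 to 0.058 for ANXA7 in KO2 against WT, and −0.057 to 0.033 for ANXA2 in KO1R against KO1EV. Same-numbered samples correlated at r −0.197 to 0.751 over 30 pairs in OPM2 (9 over 0.1) and −0.223 to 0.201 over 18 pairs in Delta47 (4 over 0.1). All same-numbered pairs were over 0.1 for OPM2 KO1 and WT and for KO1EV and KO2. Between KO1EV and KO2, replicates 1 and 2 had 0.59 and 0.623 across numbers, near the 0.648 and 0.594 of the same number. Pairs of replicate 3 with replicate 1 or 2 of these groups had −0.742 to −0.638. The main fit held no replicate block, so its values for KO1 against WT and for every other comparison are unpaired. The block was run only as an alternative. With the replicate block 2627 genes and 2 annexins were called in OPM2 KO1 against WT and 6761 genes and 6 annexins in Delta47 KO2R against KO2, no count moved by over 1.5 times, and no annexin call changed with the block. The Delta47 empty-vector comparisons and a length correction from the tables themselves were not run. Unknown depth limits what can be said of ANXA1 and ANXA6 in OPM2.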
